A study of Mus musculus with 39 samples.

Results

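The comparison concerns 10 libraries labelled bulk tumour, of the 39 libraries in the series. The 5 libraries named T-021, T-023, T-026, T-029 and T-030 came from mice given a faecal microbiota transplant (FMT) of stool exposed to CZA together with DAV132. The 5 libraries named T-982, T-984, T-988, T-989 and T-990 came from mice given stool exposed to CZA alone. They were chosen by these names and by the treatment given for each library, not by any measured value. All 10 received anti-PD-1, an antibody that blocks the inhibitory receptor PD-1 on T cells. All were wild-type C57BL/6 mice, the strain from which the implanted fibrosarcoma line MCA-205 derives; no source used here gives their ages. The stool, labelled HV among the treatments, was exposed for 6 days, MCA-205 cells were implanted under the skin 2 weeks after the transplant, and treatment began at a tumour size of 25 to 35 mm2. Antibody was given as 4 injections of 250 µg, 3 days apart, and tumours were frozen 2 days after the last. DAV132 is known as an adsorbent that acts in the colon, and CZA is given in the labels by these letters alone. The question was whether stool exposed to CZA with DAV132 gives another tumour transcriptome under anti-PD-1 than stool exposed to CZA alone. The libraries do not replicate the stool, and the group names follow the number series of the libraries, so DAV132 cannot be told apart from any other difference between the stools or between these series. No label names the mouse behind a library, so each p-value describes how these libraries vary, and some of that variation may be technical.

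PD-1 is an inhibitory receptor that activated T cells display, and antibodies against it act on T cells that have already met antigen. The response of tumours to such antibodies depends in mice on the gut flora, and antibiotics that deplete this flora weaken it. A T cell that binds antigen switches on a programme of immediate early factors such as Fosl2 and Nr4a1, costimulatory receptors such as Icos, the inhibitory receptor Ctla4, and feedback inhibitors of the transcription factor NF-kB such as Tnfaip3. Ribosome synthesis and mitochondrial respiration increase in the same cells as they grow and divide.

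Some of the genes described below are regulated in T cells through sites for NF-kB, AP-1 and cyclic-AMP response factors. Promoters of a part of them were therefore read for these motifs. Of 9 genes searched, 5 were in the RefSeq table of GRCm38.p6 promoters, with 6 windows that each run from 250 bases before to 50 bases after a transcript start. The motifs, read on both strands, were GGG followed after any 2 bases by TTTCC for NF-kB, TGANTCA for AP-1 and TGACGTCA for the cyclic-AMP response element. They occurred in 1.63%, 7.81% and 1.79% of 32851 windows. The upstream window of Tnfaip3, on the minus strand at chr10:19015361-19015660, held an NF-kB match at -12 and an AP-1 match at -136 from the start. The window of Btg2, on the minus strand at chr1:134079106-134079405, held a cyclic-AMP match at -166. The windows of Ctla4, Nr4a1 and Fosl2 and the second window of Tnfaip3 held none of the motifs. The upstream Tnfaip3 window and the Btg2 window follow, with the matches in capitals, as the only windows that held a match. A match is a run of letters and no evidence of binding.
Tnfaip3: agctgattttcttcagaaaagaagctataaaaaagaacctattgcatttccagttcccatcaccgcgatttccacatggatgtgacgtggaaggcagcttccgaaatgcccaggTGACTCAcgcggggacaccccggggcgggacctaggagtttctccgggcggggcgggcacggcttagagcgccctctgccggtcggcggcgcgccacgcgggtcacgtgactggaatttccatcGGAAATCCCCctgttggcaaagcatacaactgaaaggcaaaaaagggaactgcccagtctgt
Btg2: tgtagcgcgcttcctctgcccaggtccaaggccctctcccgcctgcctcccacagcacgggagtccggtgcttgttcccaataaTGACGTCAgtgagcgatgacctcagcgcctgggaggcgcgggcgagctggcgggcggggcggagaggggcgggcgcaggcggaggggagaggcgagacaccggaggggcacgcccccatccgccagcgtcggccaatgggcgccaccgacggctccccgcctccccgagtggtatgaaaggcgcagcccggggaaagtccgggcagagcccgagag

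Values were TPM, a transcript abundance in which every library is scaled to a fixed total, so the depth of sequencing behind each value is unknown and a rise of some entries lowers all others. Per library, the deposited genes added up to 970406 to 989482 TPM. A set of 17 gene entries made of satellite or simple repeats took 51.1% of the TPM of T-026 and 0.259% to 0.735% in the other 9 libraries. The difference in mean share was 10.1 percentage points (10.6 ± 22.7% against 0.43 ± 0.18%, SD, n = 5 each) and did not pass an exact two-sided permutation test (p = 0.524, where 5 against 5 allow no p below 0.00794). Without T-026 it was -0.0109 percentage points. T-023 also stood apart, with the lowest Actb level (36590 TPM, against 48066 to 135313 TPM elsewhere) and the highest share of mitochondrial transcripts (10.8%, against 2.24% to 7.1%). Factors that bring the median gene of each library to one level were 0.607 for T-026, 0.764 for T-023 and 1.08 to 1.26 for the other 8. Both libraries belong to the CZA+DAV132 group. Results over all genes and for lists are therefore given on the TPM scale, after this median-ratio scaling, and without T-023 and T-026. Changes of single genes are on the TPM scale unless another setting is named, and several falls were smaller in the other settings.

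A stretch of the satellite entry Gm10800 (chr2:98666547-98667301), the most abundant entry of T-026, is shown as bases 122 to 232 of its GENCODE M21 transcript. The capitals mark a run of 21 bases that all 12 satellite entries share.
Gm10800: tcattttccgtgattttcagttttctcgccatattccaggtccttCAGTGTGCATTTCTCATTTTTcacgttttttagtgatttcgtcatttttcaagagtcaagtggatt

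**Figure D1:**
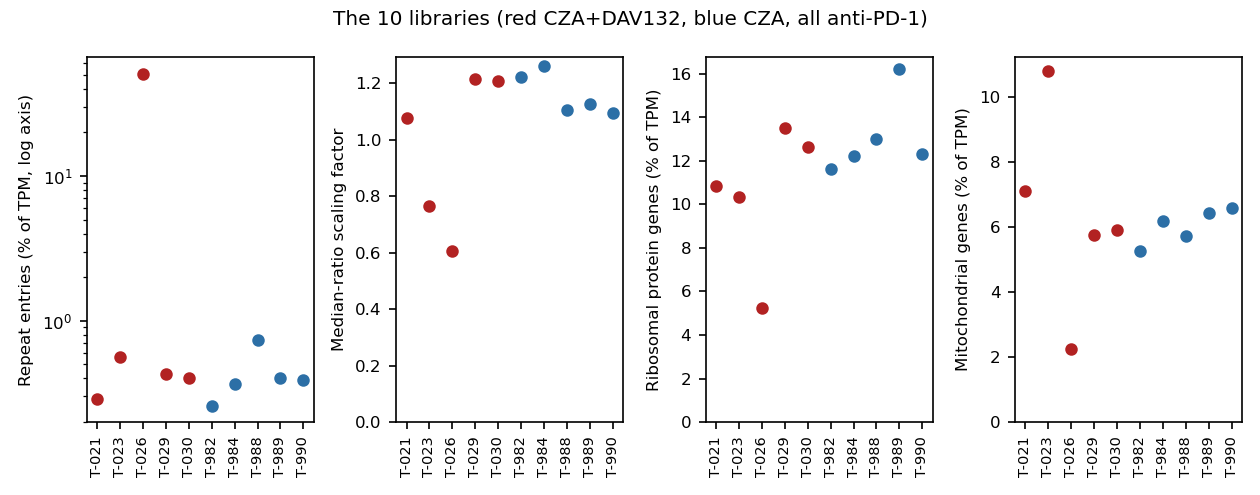
The 4 panels show, for each of the 10 libraries, the percent of TPM on repeat entries (log axis), the median-ratio scaling factor, and the percent of TPM on ribosomal protein genes and on mitochondrial genes. T-026 is at 51.1% repeat share and T-023 at 10.8% mitochondrial share, and both have a factor under 0.8, while the other 8 lie between 1.08 and 1.26.

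The label "bulk tumour" was set against markers. The summed TPM of 18 T cell markers was 2.21 to 6.88 times that of the fibroblast and fibrosarcoma markers in each library (median 5.23). The fibroblast sum is no measure of the implanted line. It holds Thy1, also among the T cell markers, and genes that sorted CD8+ T cells express. S100a4 had a mean of 2180 TPM in the CZA anti-PD-1 libraries of sorted CD8+ T cells, against 1369 TPM in the CZA libraries here. For Vim the means were 536 TPM and 1130 TPM. The lowest ratio was in T-023. The libraries are called by their label below, with this limit. Mzb1 and Jchain of the plasma cell markers, Ly6g, Ngp and Camp of the neutrophil markers, Plvap and Cldn5 of the endothelial markers and Krt5 and Krt8 of the epithelial markers were listed at 0 in all 10 libraries.

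No gene passed. Of 13326 genes tested with limma, 0 had an adjusted p under 0.05 (0%), and the smallest adjusted p was 0.0589, that of the pseudogene entry Rps19-ps14. At an unadjusted p under 0.05 there were 1010 genes (7.58%), 742 of them lower with CZA+DAV132 (5.57%) and 268 higher (2.01%). The median change over all genes was -0.19 on the log2 scale, and 64.3% of genes were below 0. Median-ratio scaling moved the median by more than 0.1, to 0.04, and the unadjusted split turned to 327 lower (2.47%) and 542 higher (4.09%). After it 2 genes passed (0.0151%), 1 in each direction (0.00755%). Without T-023 and T-026 the median was 0.03, 445 genes had an unadjusted p under 0.05 (3.41%) and 3 passed (0.023%), all higher. Limma's array weights, which give less weight to libraries that deviate, called 27 lower (0.203%) and 15 higher (0.113%), 42 in all (0.315%), with 1508 at an unadjusted p under 0.05 (11.3%). The excess of lower genes was therefore present on the TPM scale and turned to an excess of higher genes after scaling.

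No protein-coding gene passed, and those of smallest p were lower with CZA+DAV132. Predicted genes (Gm and Rik names) were left out of the ranking that follows. The 10 protein-coding falls of smallest p were then Rpl6, Rpl4, Rpl5, Ptges3, Actr2, Tnfaip3, Dcun1d5, Btg1, Eef1b2 and Ctla4, with adjusted p between 0.0841 and 0.218. Each of these 10 passed with array weights. None of the 10 passed after median-ratio scaling, where the adjusted p ran from 0.0534 to 0.359. They kept a negative sign in all 21 alternatives, with values between -2.31 and -0.61. Over all genes, the TPM of the groups did not overlap for 255 lower genes (1.91%) and 31 higher genes (0.233%). Of the 10 falls, 7 had groups that did not overlap, and on the median-ratio scale, where 1.25% of genes were lower and 0.891% higher without overlap, 8 had. The 10 were chosen by small p in these same libraries, so these counts are no separate support.

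Ctla4, the inhibitory receptor that competes for the ligands of Cd28, lies at chr1:60887000-60915832 on GRCm38. Its TPM values were 46.3, 19.4, 35, 48.9 and 67.9 in T-021, T-023, T-026, T-029 and T-030, and 368, 236, 191, 104 and 77 in T-982, T-984, T-988, T-989 and T-990. The groups did not overlap, although the highest CZA+DAV132 library and the lowest CZA library lay close together. The means were 43.5 ± 17.9 TPM against 195 ± 116 TPM (SD, n = 5 each), and the log2 change was -2.04 ± 0.46 (SE, limma adjusted p = 0.218). It was -1.74 after median-ratio scaling and -1.63 without T-023 and T-026, so about the same change was present in the 3 libraries that did not stand apart. Its adjusted p ran from 0.0293 to 1 over the alternatives.

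Icos, the inducible costimulator whose gene lies beside Ctla4 (chr1:60977927-61000320), showed a like pattern. In the same order of libraries its TPM values were 133, 35.6, 61.5, 91.5 and 107 with CZA+DAV132 and 324, 248, 165, 207 and 231 with CZA alone. No CZA+DAV132 library reached the lowest CZA library, with a log2 change of -1.55 ± 0.39 (adjusted p = 0.274). The change was -1.25 after median-ratio scaling and -1.06 without T-023 and T-026. Cd28, the receptor of the constitutive costimulatory signal and the neighbour of both, had means of 42.5 ± 16 TPM against 79 ± 16.4 TPM and groups that did not overlap. Its log2 change was -0.95, and -0.65 after median-ratio scaling and -0.54 without T-023 and T-026. Pdcd1, which encodes the target of the antibody, overlapped between the groups, with TPM values of 141, 45.9, 71.4, 105 and 152 against 267, 238, 157, 79 and 115. Its log2 change of -0.72 ± 0.38 had an adjusted p of 0.718, and it was -0.24 without T-023 and T-026.

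Single genes of NF-kB feedback and of T cell activation were among those of small p, although none passed. Tnfaip3 encodes A20, which removes ubiquitin chains from NF-kB signalling proteins, and its promoter is the one shown with an NF-kB match. Its TPM values were 40.6, 11, 22.7, 37.3 and 41.5 in the CZA+DAV132 libraries and 123, 91.9, 91.7, 88 and 64.5 in the CZA libraries, a log2 change of -1.67 ± 0.36 (adjusted p = 0.167). T-023 was the lowest, and the other 4 CZA+DAV132 libraries were still below every CZA library. The log2 change was -1.37 after median-ratio scaling and -1.16 without T-023 and T-026. Nfkbiz, an atypical nuclear IkB protein induced by the same pathway, was at 15.3, 9.05, 7.69, 24.5 and 26.1 TPM against 36.6, 30.5, 36.3, 46.4 and 32.3 TPM. Its groups did not overlap either (log2 change -1.23, adjusted p = 0.317).

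Nr4a1, an orphan nuclear receptor whose transcription follows T cell receptor signalling, had TPM values of 22.6, 16, 7.97, 8.83 and 12 with CZA+DAV132 and 33.8, 29.4, 40, 42.3 and 35.9 with CZA. The 5 CZA libraries lay close together and all were above the highest CZA+DAV132 library. Its log2 change was -1.45 ± 0.37 (adjusted p = 0.274). Fosl2, an AP-1 subunit, was at 15, 8.26, 7.01, 12.9 and 14.1 TPM against 61.3, 27.9, 23.1, 36.7 and 32.8 TPM, with no overlap and a log2 change of -1.56 ± 0.39 (adjusted p = 0.274). Bhlhe40, a transcription factor that supports cytokine production by T cells, had means of 66.3 ± 15.3 TPM against 147 ± 33.4 TPM and a log2 change of -1.14. Rgs1, a regulator of G protein signalling abundant in T cells resident in tissue, had means of 204 ± 93.8 TPM against 399 ± 42.2 TPM and a log2 change of -1.12. This change was -0.81 after median-ratio scaling and -0.59 without T-023 and T-026. The groups did not overlap for Bhlhe40 or Rgs1.

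The antiproliferative pair Btg1 and Btg2, which recruit the deadenylase that shortens mRNA tails, were lower together. Btg2, whose promoter window is shown with a cyclic-AMP match, was at 32.6, 19.1, 20.8, 42.4 and 45.1 TPM in the CZA+DAV132 libraries and 88.1, 87.8, 54.9, 67.4 and 76.5 TPM in the CZA libraries. Btg1 was at 262, 179, 205, 419.8 and 340.0 TPM and 681, 526, 851, 479.5 and 470.3 TPM in the same order. Neither overlapped between the groups, on the TPM or on the median-ratio scale. The log2 changes were -1.26 ± 0.29 for Btg2 (adjusted p = 0.23) and -1.13 ± 0.25 for Btg1 (adjusted p = 0.194).

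Within translation, 3 proteins of the large ribosomal subunit had the smallest p-values. Rpl5, which binds the 5S ribosomal RNA, had TPM values of 99.8, 119, 82.3, 109 and 104 in the CZA+DAV132 libraries and 232, 201, 347, 387 and 195 in the CZA libraries. The CZA+DAV132 values were tight, the groups did not overlap, and the log2 change of -1.35 ± 0.27 (adjusted p = 0.102) was -1.32 without T-023 and T-026. Rpl6 was at 749, 548, 487, 1108 and 848 TPM against 1408, 1636, 1723, 1427 and 1287 TPM (log2 change -1.05 ± 0.20, adjusted p = 0.0841). Rpl4 was at 660.0, 539, 473, 879.8 and 795 TPM against 2065, 1818, 1758, 927 and 1059 TPM (log2 change -1.16 ± 0.23, adjusted p = 0.102). Neither of the last pair overlapped. Eef1b2, which recharges elongation factor 1A with GTP, had means of 503 ± 154 TPM against 926 ± 174 TPM and overlapped by 1 pair of libraries on the TPM scale only.

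Ribosomal protein genes have many processed copies that share reads, so single members are uncertain, and a list of all 79 cytosolic members was added after the values were seen. Of the 79, 70 were below 0 and 29 were lower at an unadjusted p under 0.05 against 5.57% of all genes. After median-ratio scaling 45 were below 0, against 46.6% of all genes, with 19 lower and 4 higher at an unadjusted p under 0.05. Their median was -0.37 against -0.19 for all genes, -0.07 against 0.04 after median-ratio scaling, and -0.11 against 0.03 without T-023 and T-026. The extent differed within the family: Rpl3, the core protein near the catalytic centre, was at -0.96, Rpl11, the partner of Rpl5 on 5S RNA, at 0.28, Rps19 at 0.30 and the minor form Rpl39l at 1.37. The share of TPM on the family was 5.23% to 13.5% with CZA+DAV132 and 11.6% to 16.2% with CZA (difference in means -2.57 percentage points, exact two-sided permutation p = 0.167).

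The processed copies were among the entries of smallest p themselves, outside the rule for named genes. Rps13-ps2 was at 575, 345, 309, 630.3 and 566 TPM against 1099, 1089, 1157, 1008 and 943 TPM, and Gm8430 was at 363, 312, 224, 441 and 494 TPM against 1029, 1389, 1563, 586 and 808 TPM. Neither overlapped, and Rps13-ps2 was the lower entry that passed after median-ratio scaling (adjusted p = 0.0282, with 0.00931 to 0.279 over the alternatives). Gm10131, a predicted gene annotated as protein-coding, was also outside the rule. Gm10131 was listed at no more than 3.26e-08 TPM in the CZA+DAV132 libraries and at 27.6, 28.2, 51.8, 23.7 and 11.1 TPM in the CZA libraries. It passed with a pseudocount of 0.1, with array weights and in the fits of only the groups compared. Rps19-ps14 was at 6.2, 5.79, 0.923, 1.83 and 2.23 TPM with CZA+DAV132 and listed at 0 in all CZA libraries. It was the higher entry counted after median-ratio scaling. It reached the filter through 4 CZA+DAV132 libraries under anti-PD-1 and no other library, so its p-value is no support for a difference. Whether these entries differ in transcription or in how reads were shared with related genes was not tested.

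Other lower genes of small p served chaperoning, the cytoskeleton, protein degradation and respiration. Ptges3, the Hsp90 co-chaperone p23, was at 363, 305, 314, 584 and 561 TPM with CZA+DAV132 and 1932, 1454, 2449, 557 and 881 TPM with CZA, where T-982, T-984 and T-988 were far above T-989 and T-990. T-989 fell inside the range of the CZA+DAV132 libraries, so the groups overlapped (log2 change -1.64 ± 0.34, adjusted p = 0.147). Actr2, the Arp2 subunit that starts branched actin filaments, also overlapped, with means of 785 ± 341 TPM against 1958 ± 686 TPM. Dcun1d5, which helps attach Nedd8 to cullin ligases, had means of 194 ± 61.5 TPM against 396 ± 103 TPM and groups that did not overlap.

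Ndufa4, a subunit of cytochrome c oxidase, was at 204, 154, 129, 270.0 and 194 TPM against 478, 416, 650.3, 272 and 341 TPM. T-029 came just under the lowest CZA library, so the groups did not overlap by a narrow margin (log2 change -1.16 ± 0.27, adjusted p = 0.257). Cox7a2, another subunit of the same complex, had means of 83.3 ± 28 TPM against 175 ± 42.8 TPM and a log2 change of -1.10 ± 0.27, with no overlap. Arpc2 of the Arp2/3 complex was at -0.87 on the log2 scale (means 372 ± 138 TPM against 647 ± 100.3 TPM), also without overlap.

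**Figure D2:**
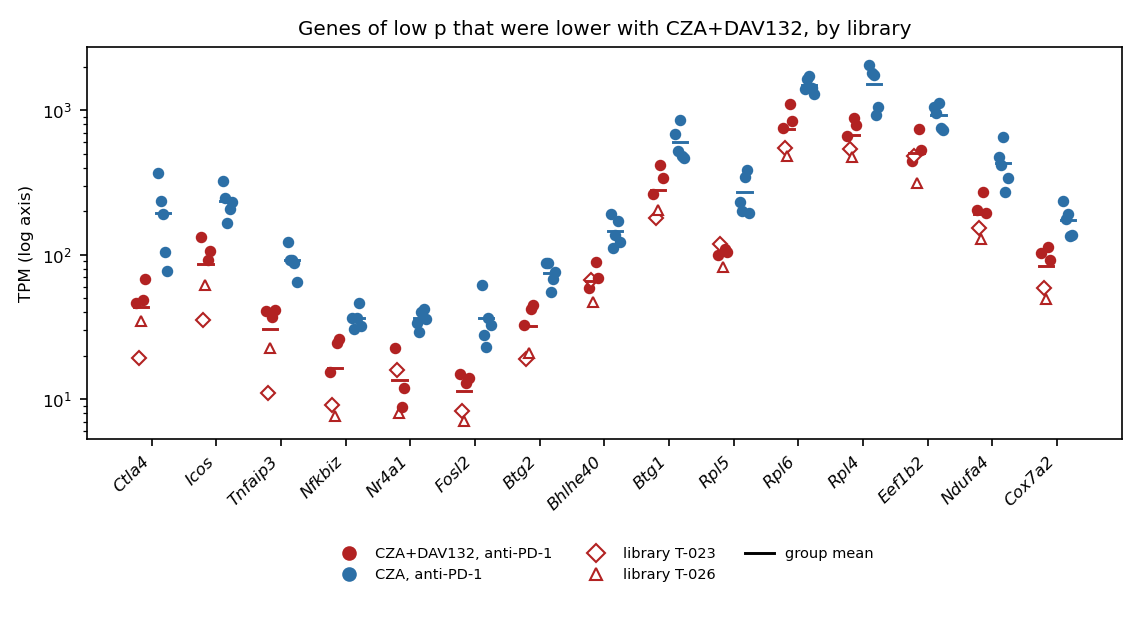
TPM on a log axis for 15 lower genes, with a point for each library, CZA+DAV132 in red and CZA in blue, and bars at the group means. T-023 (open diamonds) and T-026 (open triangles) are often the lowest, and for Ctla4, Icos, Tnfaip3, Nr4a1 and Rpl5 the other 3 CZA+DAV132 libraries also lie below all 5 CZA libraries.

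The lists were read by their counts and medians, given on the TPM scale, after median-ratio scaling and without T-023 and T-026, in that order. Over all genes the medians were -0.19, 0.04 and 0.03, and 5.57%, 2.47% and 1.42% were lower at an unadjusted p under 0.05. Which cell types the libraries hold was not measured, and fewer cells of a type cannot be told apart from less RNA per cell. No member of any list passed after adjustment. Of 18 T cell markers, 17 were below 0 on the TPM scale and 6, 4 and 1 were lower at an unadjusted p under 0.05, with a median of -0.60. The median was -0.30 after scaling and -0.13 without the pair of libraries. Their summed level was 4885 to 14435 TPM with CZA+DAV132 and 10586 to 16172 TPM with CZA. Trac, the constant segment of the receptor alpha chain, had values of 379, 77.6, 267, 549 and 312 against 1127, 800.2, 794, 450.0 and 722 TPM, with T-023 the lowest and T-029 inside the CZA range. Cd8a, the co-receptor of cytotoxic T cells, was at 285, 141, 181, 357 and 352 against 390.1, 423, 374, 363 and 338 TPM, where T-029 and T-030 were among the CZA values (log2 change -0.61 ± 0.25, adjusted p = 0.566).

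T cell activation and costimulation genes had 19 of 21 members below 0 and 6, 4 and 1 lower at an unadjusted p under 0.05, with a median of -0.63, -0.36 after scaling and -0.17 without T-023 and T-026. Besides Icos they included Cd40lg at -1.13, the ligand by which T cells license antigen-presenting cells, and Tnfrsf9 at -0.81, a marker of recent antigen contact. Inhibitory receptor and exhaustion genes had 19 of 20 members below 0 and 3, 3 and 2 lower at an unadjusted p under 0.05, with a median of -0.66, -0.37 and -0.30 in the same order of settings. Lag3 was at -0.89 (adjusted p = 0.681). Havcr2, which encodes Tim-3, and Tox, the factor that maintains exhaustion, had means of 42.3 ± 21.2 TPM against 45.7 ± 17.2 TPM and 37.4 ± 14.7 TPM against 37.2 ± 15.4 TPM. Both had changes smaller than their standard errors (-0.24 ± 0.57 and 0.05 ± 0.41), and both changed sign among the settings.

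Among immediate early genes, 12 of 16 were below 0 and 5, 3 and 2 were lower at an unadjusted p under 0.05, with a median of -0.72, -0.45 after scaling and -0.34 without the pair. Atf3 was at -1.81, the phosphatase gene Dusp1 at -1.43 and Fos at -0.84, whereas Jun was at 0.17 and Ier3 at 0.63. The 14 NF-kB subunits and feedback genes had 12, 10 and 8 below 0 and 4, 3 and 2 lower at an unadjusted p under 0.05, with medians of -0.50, -0.22 and -0.06. The inhibitors Nfkbie and Nfkbia were at -1.03 and -0.98, whereas Nfkb2 of the alternative pathway was at 0.48 and Bcl3 at 0.74.

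Of the effector lists, T cell cytokines and chemokines (13) had medians of -0.33, -0.10 and -0.01, with 1, 0 and 0 lower at an unadjusted p under 0.05. Cytotoxic granule genes had 12 of 15 members below 0, with 3, 2 and 0 lower at an unadjusted p under 0.05 and medians of -0.57, -0.27 and -0.22. Gzmb, the granzyme that cleaves caspases in target cells, was at 1036, 502, 677, 966 and 1189 TPM against 1559.9, 1361, 932, 1116 and 1329 TPM. These ranges overlapped and the log2 change was -0.57 ± 0.33 (adjusted p = 0.776). Nkg7, a granule membrane protein, was at -0.87, Prf1, the pore-forming protein, at -0.79 and Serpinb9, which protects the killer cell from its own granzyme, at -1.25. Nkg7 was at -0.56 after median-ratio scaling and -0.42 without T-023 and T-026, and Serpinb9 at -0.95 and -1.03. Ifng was at 324, 113, 141, 223 and 284 TPM against 409, 364, 393, 297 and 426 TPM, with T-021 inside the CZA range (log2 change -0.90 ± 0.34, adjusted p = 0.483). Its change was -0.60 after median-ratio scaling and -0.45 without T-023 and T-026. NK cell markers had 9 of 12 members below 0, 4, 1 and 0 lower at an unadjusted p under 0.05, and medians of -0.70, -0.41 and -0.29.

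To read genes within the T cell transcripts, the TPM of 22 genes was divided by the summed T cell markers of the same library, a ratio that no scaling changes. The genes were chosen after their values were seen, and no test was made. Expressed per 1000 TPM of T cell markers, 7 of the 22 were lower with no overlap between the groups, against 0.383% of all tested genes, and 0 were higher, against 0.855%. The 7 were Ctla4, Icos, Tnfaip3, Nfkbiz, Fosl2, Btg2 and Rgs1. Ctla4 ran from 3.39 to 5.09 with CZA+DAV132 and from 5.13 to 30.5 with CZA. Tnfaip3 ran from 2.25 to 3.36 and 4.3 to 10.2, and Rgs1 from 15.4 to 21.6 and 26.9 to 39, in the same order. Pdcd1 (7.25 to 11.7 and 4.89 to 22.5), Gzmb (66.9 to 103 and 69 to 129) and Rpl5 (7.25 to 24.4 and 13 to 27.7) overlapped. The 7 genes were thus lower in proportion to the T cell markers of the same library. The 22 were chosen with their values known, so this count is no support for a difference.

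Lists of antigen presentation and metabolism had medians of similar size. Of 21 genes of MHC class I and the immunoproteasome, 19, 15 and 16 were below 0 and 9, 3 and 1 were lower at an unadjusted p under 0.05, with medians of -0.53, -0.24 after scaling and -0.12 without T-023 and T-026. H2-K1, a classical class I heavy chain, had means of 1506 ± 507 TPM against 2346 ± 404 TPM. Of 44 oxidative phosphorylation genes, 41, 29 and 31 were below 0 and 15, 8 and 3 were lower at an unadjusted p under 0.05, with medians of -0.52, -0.23 and -0.19. Glycolysis genes (18) had medians of -0.54, -0.24 and -0.28 and 7, 3 and 2 members lower at an unadjusted p under 0.05, with Ldha, which turns pyruvate into lactate, at -0.82. Actin cytoskeleton genes (20) had medians of -0.53, -0.23 and -0.31, and genes of the unfolded protein response (15) of -0.56, -0.28 and -0.29.

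Interferon and proliferation lists had medians near that of all genes. The 25 genes of the Cxcr3 axis and the interferon gamma response had a median of -0.23, near that of all genes, with 7, 3 and 0 members lower at an unadjusted p under 0.05, on the TPM scale including the transcription factor Irf1 at -0.91. Cxcl9, the chemokine that draws Cxcr3-bearing T cells, overlapped fully, with TPM values of 23, 21.8, 12.9, 4.88 and 8.41 against 7.89, 16.5, 16.8, 5.88 and 9.94. Cd274, which encodes the PD-1 ligand PD-L1, had means of 32.2 ± 8.48 TPM against 32.4 ± 12 TPM and a log2 change of 0.03 ± 0.36, an interval of -0.72 to 0.79 at 95%. The 37 genes of the type I interferon response had a median of -0.05, and of 0.20 after scaling, where the sign turned. The 46 cell cycle genes likewise went from -0.18 to 0.09, with Mki67 at -0.42 ± 0.33. Irf7, an amplifier of type I interferon, was the type I member with an unadjusted p under 0.05, at 80.6, 30.6, 30, 107 and 59.4 TPM against 13.6, 12.6, 17.3, 47 and 39.4 TPM, and overlapped in the CZA+DAV132 libraries T-023 and T-026 (log2 change 1.24, adjusted p = 0.526).

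Myeloid and stromal lists were mixed. Of 20 macrophage and monocyte markers, 13 were below 0, with a median of -0.12, and 0.09 after scaling. Their summed level did not overlap between the groups on the TPM scale and did after median-ratio scaling (760.1 to 889.7 against 866 to 1302). It was 478 to 1048 TPM with CZA+DAV132 and 1059 to 1441 TPM with CZA on the TPM scale, and was led by Ly6c2, a monocyte antigen that activated CD8+ T cells also carry (means 439 ± 183 TPM against 800.2 ± 164 TPM). Fibroblast markers (17 tested) had medians of 0.02, 0.16 and -0.44, so their direction rested on T-023 and T-026. Dendritic cell markers (12) had -0.41, -0.30 and -0.61, and regulatory T cell markers (8) had -0.53, -0.26 and -0.11. Madcam1, the ligand on vessels for the gut-homing integrin, was at 0 in each of the 10 libraries, as were Il17a, Il17f, Il22 and Ccr10 of the same list.

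**Figure D3:**
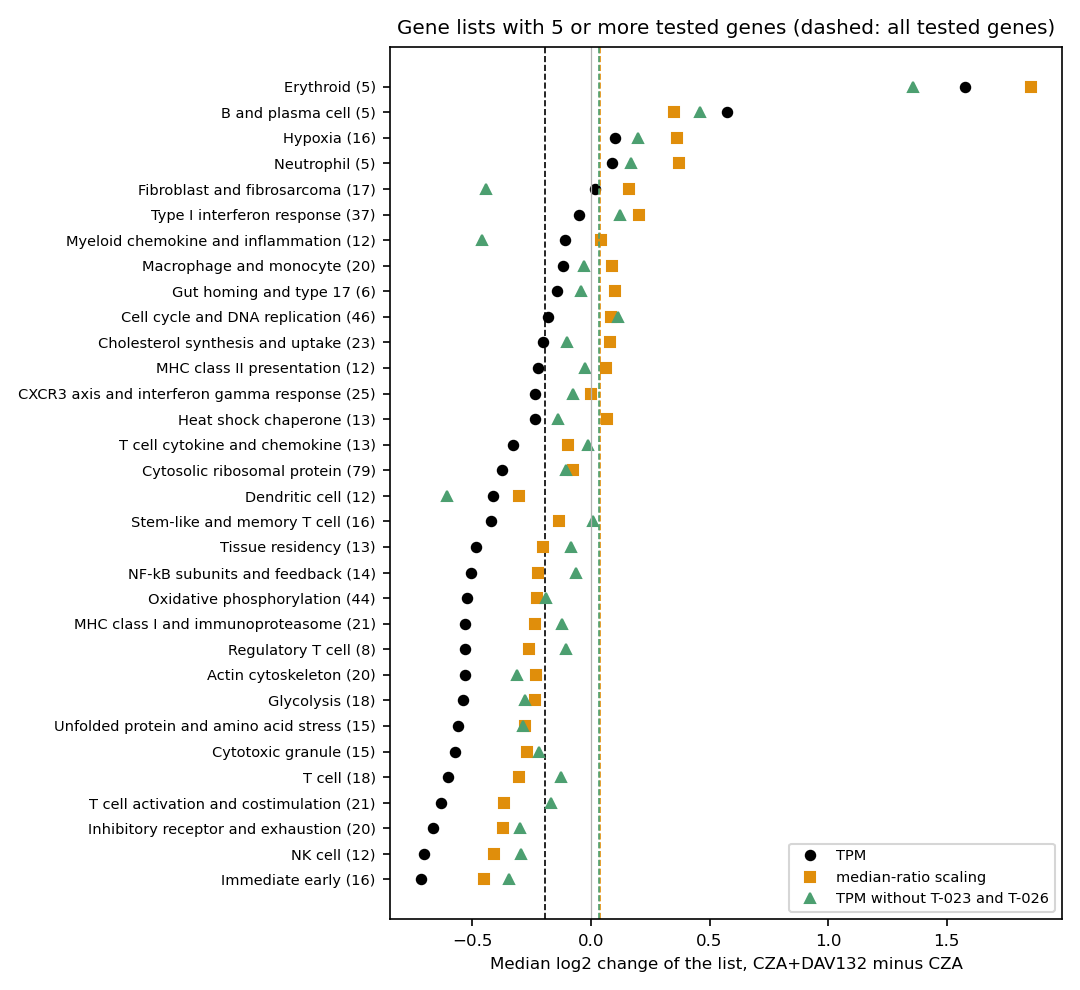
Median log2 change (CZA+DAV132 minus CZA) of each list with 5 or more tested genes (number in brackets) on the TPM scale (circles), after median-ratio scaling (squares) and without T-023 and T-026 (triangles); dashed lines are the medians of all tested genes. Most lists move right by about as much as the dashed line does, 19 of the 32 lists, immune and metabolic, lie left of it in all 3 settings, and the erythroid list lies far right at 1.36 to 1.86.

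Among the genes taken by the naming rule on the TPM scale, those higher with CZA+DAV132 had larger p-values than those that were lower. The 10 of smallest p by the same rule were Glis3, Gnrh1, Bmt2, Hba-a2, Cisd3, Col4a3, Dmgdh, Zfp260, Pax6 and Gtf2a1, with adjusted p between 0.317 and 0.403. Glis3, a zinc finger factor of pancreas and thyroid, was at 21.9, 28.8, 11.7, 9.63 and 15.4 TPM against 1.9, 8.01, 4.4, 4.28 and 9.08 TPM. The groups did not overlap on the TPM scale but did after median-ratio scaling (log2 change 1.53 ± 0.42, adjusted p = 0.317). Bmt2 was at 417, 665, 111, 116 and 175 TPM against 34.9, 138, 37.5, 69 and 137 TPM, with T-021 and T-023 far above the rest and T-026 and T-029 within the CZA range (log2 change 1.69 ± 0.47). Col4a3, a chain of basement membrane collagen, and Cisd3, an iron-sulphur protein of mitochondria, had the same T-021 and T-023 excess, with means of 308 ± 142 TPM against 130.5 ± 57.3 TPM and 995 ± 392 TPM against 516 ± 194 TPM. T-023 was also the highest library for Zrsr1, a splicing factor gene, at 82207 TPM, and for Sec61a1, the channel of the endoplasmic reticulum, at 57305 TPM. Without T-023 and T-026, Bmt2 was at 1.52, Col4a3 at 1.19 and Glis3 at 1.41.

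All 5 erythroid genes were above 0, with a median of 1.58 on the TPM scale, 1.86 after scaling and 1.36 without T-023 and T-026, and 2 were higher at an unadjusted p under 0.05 against 2.01% of all genes. Hba-a2, an adult alpha globin, was at 47, 133, 42.5, 46 and 24.5 TPM with CZA+DAV132 and 3.54, 1.2, 21.1, 32.6 and 4.57 TPM with CZA. T-023 was the highest, and T-030 lay below the highest CZA library (log2 change 2.60 ± 0.73, adjusted p = 0.317). The beta globins Hbb-bs and Hbb-bt were at 1.58 ± 0.80 and 1.83 ± 0.70, and the second alpha globin Hba-a1 at 0.97 ± 0.60. The summed erythroid level was 55.4 to 244 TPM against 10.2 to 80.1 TPM, and these ranges overlapped. The part of blood in the samples in this result was not tested.

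The ribosomal pseudogene Rpl17-ps5 was at 863, 1428, 249, 676 and 1230.2 TPM against 7.69, 22.4, 43.1, 423 and 168 TPM, named after its values were seen. It overlapped between T-026 and T-989 on the TPM scale and did not overlap after scaling (log2 change 3.72 ± 1.06, adjusted p = 0.317). Pax5, a B cell factor, was at 7.59, 7.83, 17.3, 7.32 and 7.59 TPM against 3.31, 3.85, 4.1, 5.91 and 3.09 TPM, with no overlap on either scale, while only 5 of 12 B and plasma cell markers reached the filter.

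**Figure D4:**
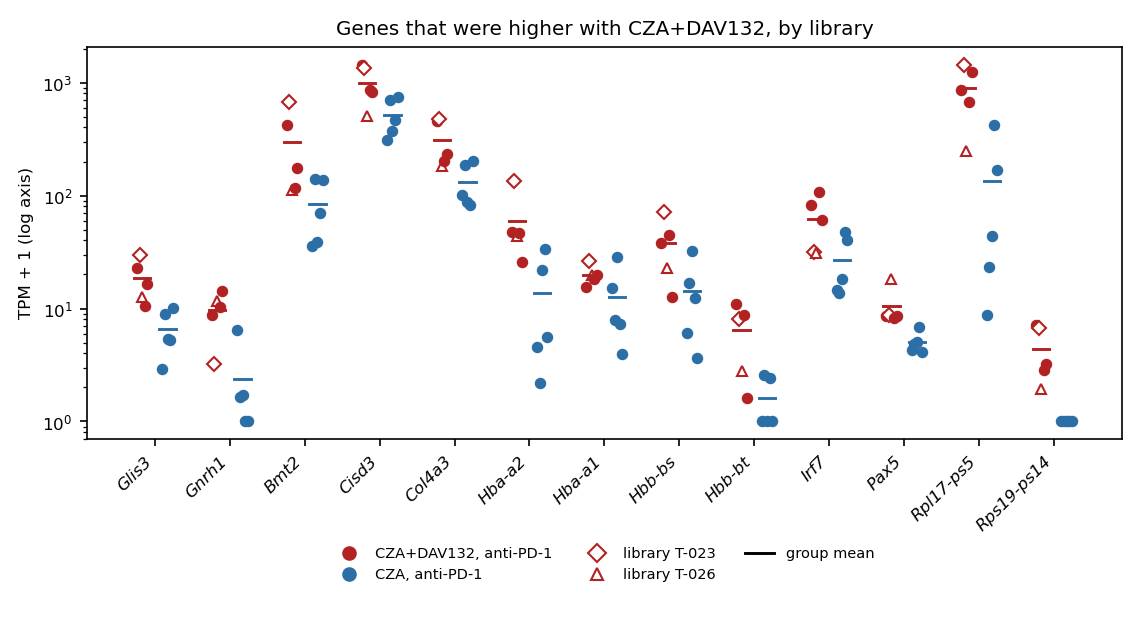
TPM + 1 on a log axis for 13 genes that were higher with CZA+DAV132, with a point for each library and bars at the group means (red CZA+DAV132, blue CZA). T-023 (open diamonds) is the highest library for Glis3, Bmt2, Hba-a2, Hbb-bs and Rpl17-ps5, and the groups of Glis3, Pax5 and Rps19-ps14 do not overlap while those of the other 10 do.

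The same stool comparison was made under the isotype antibody, in 4 CZA+DAV132 and 5 CZA libraries that are not part of the comparison above. There 15 genes passed, all higher (0.113%), 1454 had an unadjusted p under 0.05 (10.9%), the median change was 0.21, and 0 genes passed when only those groups were fitted. The interaction of stool and antibody had a median of -0.42, with 6 genes passing, all lower (0.045%; 10.3% at an unadjusted p under 0.05), on the TPM scale and 0 after median-ratio scaling, where its median was -0.06. T-985, an isotype CZA library, had 13.9% of its TPM on repeat entries. Without T-985, 73 genes passed under isotype (66 higher, 7 lower), and 18 interactions passed, all lower. Ctla4 was at 0.17 under isotype against -2.04 under anti-PD-1 (interaction -2.21, adjusted p = 0.3). Tnfaip3 was at 0.17 under isotype (interaction -1.83, adjusted p = 0.29), and Rpl5 at 0.38 (interaction -1.73, adjusted p = 0.176). No interaction of these 3 genes passed, so their changes were not shown to differ between the antibodies. Hba-a2 was at 2.00 under isotype (interaction 0.59).

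A repeat of the experiment with the same stool gave sorted CD8+ T cells, 5 libraries a group, in a table of its own. Of 12942 genes, 5 passed there, all lower (0.0386%), 33.5% had an unadjusted p under 0.05, and the median change was -0.40, or -0.01 after median-ratio scaling. Fosl2 passed there, at -1.55 ± 0.28 (adjusted p = 0.0399) against -1.56 in the libraries labelled bulk tumour, and so did Hilpda, which coats lipid droplets in hypoxic cells, at -2.08 (adjusted p = 0.0329) against -1.57, and Coa7, an assembly factor of cytochrome c oxidase, at -1.76 (adjusted p = 0.0306) against -0.69. The calls of Fosl2 and Hilpda were lost after median-ratio scaling (adjusted p = 0.0982 and 0.0777) and without CD8-16 and CD8-19 (adjusted p = 0.179 and 0.271), and that of Coa7 was not (0.01 and 0.0269). Ctla4 was at -2.08 ± 0.39 (adjusted p = 0.0503), Tnfaip3 at -1.89 (adjusted p = 0.0605) and Icos at -1.63 (adjusted p = 0.0683) in the CD8+ T cells. None of these passed. After median-ratio scaling they were at -1.57, -1.38 and -1.10, in the same order. Without CD8-16 and CD8-19 they were at -1.45 (limma adjusted p = 0.318), -1.19 (adjusted p = 0.271) and -0.88 (adjusted p = 0.445). Rpl5, by contrast, was at -0.22 in the CD8+ T cells, and at 0.29 after scaling. The T cell activation list had a median of -0.69 with 21 of 21 members below 0, where 82.4% of all genes were, but -0.25 with 16 below 0 after scaling and -0.09 without CD8-16 and CD8-19, and the erythroid list a median of 1.41.

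Across genes, which are not independent replicates, the 2 experiments share the stool and no library. After median-ratio scaling Pearson's r between their log2 changes was 0.44 over 12041 genes and 0.52 over the 6937 genes with a mean of at least 5 TPM in both. Without T-023, T-026, CD8-16 and CD8-19, left out after seeing the data, r was 0.30 on the TPM scale over all 11897 genes and 0.37 over 6930 genes of that level. With these libraries it was 0.45 and 0.52 on that scale. Leaving out CD8-16 and CD8-19 took the median change of the CD8+ T cells from -0.40 to -0.05 on that scale. On the median-ratio scale, over 12025 genes, changes below -1 in both were found for 37 genes. These were 13.5% of the 275 such genes in the libraries labelled bulk tumour and 31.1% of the 119 in the CD8+ T cells. Of the 37, 14 were antigen receptor segments and 16 protein-coding, among them Ctla4, Icos, Tnfaip3, Fosl2, Hilpda, the phosphatases Dusp1 and Dusp4 that switch off MAP kinases, the G protein regulator Rgs2, the chemokine receptor Ccr8 and the immediate early factor Csrnp1. The shares of these kinds among all 12025 genes were not counted, so the counts show no enrichment. The genes named were picked from the 16 with their values known. Changes above 1 in both, on the same scale and over the same genes, were found for 241 genes. These were 38.9% of the 620 such genes in the libraries labelled bulk tumour and 39.4% of the 612 in the CD8+ T cells. For 137 of the 241 the highest CZA+DAV132 library of the bulk tumour set on the median-ratio scale was T-023, and for 93 it was T-026. For the 37 lower genes the highest was T-023 for 1 and T-026 for 8. Dividing by the factors of T-023 (0.764) and T-026 (0.607) lifts their values above those of the other libraries, so these counts depend on the scale. The part of T-023 and T-026 in the genes higher in both was not tested.

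**Figure D5:**
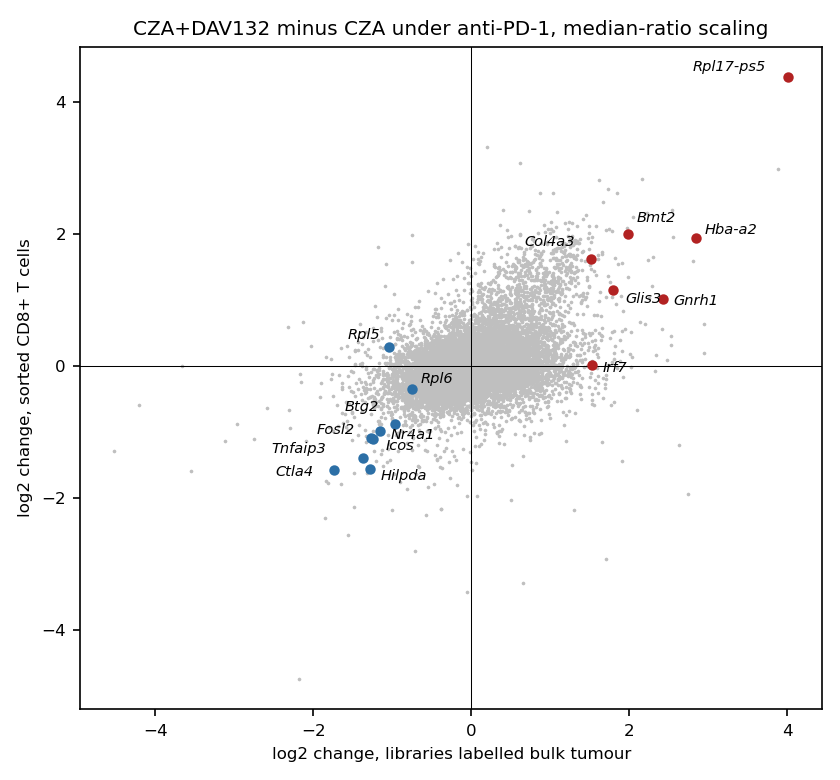
Each grey point is a gene, with its log2 change (CZA+DAV132 minus CZA under anti-PD-1, median-ratio scaling) in the libraries labelled bulk tumour on the x axis and in sorted CD8+ T cells on the y axis; blue and red points are genes named in the text. Ctla4, Icos, Tnfaip3, Fosl2 and Hilpda lie below -1 on both axes, and Rpl17-ps5, Bmt2 and Hba-a2 lie above 1 on both.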

How the data were processed

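RNA from 19 tumour samples was sequenced after ribosomal RNA depletion, per the labels' protocols, and the 10 under anti-PD-1 are described here. The authors deposited TPM, in which all transcripts of a library add up to the same total, for 28023 gene symbols, made with kallisto 0.45 on GRCm38, per the submitters' processing notes; TPM keeps no depth, so its precision is known only from the spread between libraries. All columns were assigned to a library by name (0 were not used). GENCODE M21 gave positions for 27857 symbols. With limma 3.58.1 in R 4.3.3, log2(TPM + 1) was fitted to the 4 group means of all 19 tumour libraries, keeping genes that reached 1 TPM in 4 or more libraries, with an intensity trend and Benjamini-Hochberg adjustment over all genes tested; a gene passed at an adjusted p under 0.05. On this log2(TPM + 1) scale, fold changes of low genes come out too small. The fit was checked on simulated data. The CD8+ T cell table was fitted separately in the same way.

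Named genes were those that passed, or up to 10 of smallest p in each direction with a mean of at least 5 TPM, leaving out predicted genes, pseudogenes and receptor segments, with the 2 members of smallest p in each of 34 lists and a fixed set. Other list members, pseudogenes and Zrsr1 and Sec61a1 were chosen after their values were seen. The comparison and the lists were chosen with earlier results of these data known. Alternatives were a pseudocount of 0.1, no filter, a mean of at least 5 TPM, median-ratio scaling over 8942 genes, rescaling without 17 repeat entries, array weights, only the groups compared and leaving out each library; 4 combinations that leave out T-023 or T-026 or join scaling with another choice were added after seeing the data.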

Additional observations from a re-analysis of the deposited data

Results flagged for a closer look

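Of 132 groups of 5 libraries examined for a library far from the others, 9 held one, and chance gives about 1 in 20. Within the CZA+DAV132 libraries T-026 was far above the others in its repeat share (51.1%) and in Pax5 (17.3 TPM), and T-023 was far below in Lag3 (16.4 TPM) and far above in Hba-a2 (132.6 TPM). Within the CZA libraries T-988 stood above the others in Dcun1d5 (577 TPM), Tcf7 (119 TPM) and H2-Oa (29.4 TPM), and T-982 in Serpinb9 (146 TPM) and Gnrh1 (5.48 TPM).

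The change with CZA+DAV132 differed between anti-PD-1 and isotype for 6 genes by the interaction term of limma on the TPM scale. The log2 interactions were -3.97 for Rgs8 (adjusted p = 0.0236), -3.81 for Mpv17l2 (adjusted p = 0.0236), -4.14 for D030056L22Rik (adjusted p = 0.0281), -4.40 for Tstd2 (adjusted p = 0.0459), -3.85 for Grhpr (adjusted p = 0.0462) and -4.48 for Rab4a (adjusted p = 0.0462). In each, the isotype CZA libraries were the low group: Tstd2 was at 0 in each of these 5, and Mpv17l2 had a mean of 3.15 TPM there against 37.1 TPM with CZA+DAV132. After median-ratio scaling 0 interactions passed, with 1005 genes at an unadjusted p under 0.05.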

How the results depend on the processing

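For the comparison under anti-PD-1, where 0 genes passed, 4 passed with a pseudocount of 0.1, 1 with no filter, 2 after median-ratio scaling, 1 after rescaling without repeat entries, 42 with array weights and 1 when only the groups compared were fitted. With settings added after seeing the data, 3 passed without T-023 and T-026, 3 after scaling without T-026, 3 after scaling without both and 1 after scaling with only the groups compared. Leaving out each library in turn gave 0 to 8, with 8 without T-029, 4 without T-989, 2 without T-026 and 1 without T-023. Under isotype, 15 genes became 31 with a pseudocount of 0.1, 5 with array weights and 0 when only the groups compared were fitted, and 5 to 73 without 1 library. The 6 interactions became 3 with no filter, 3 with a mean of at least 5 TPM, 0 after median-ratio scaling, 1 after rescaling without repeat entries, and 0 to 18 without 1 library. The 5 genes of the CD8+ T cells became 1 with a pseudocount of 0.1, 0 with no filter, 1365 with a mean of at least 5 TPM, 3 after median-ratio scaling, 8 after rescaling without repeat entries, 541 with array weights, 8 when only the groups compared were fitted, 2 without CD8-16 and CD8-19, and 0 to 3993 without 1 library (3993 without CD8-20). The causes were not tested.

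Of 65 genes, 61 were recomputed under 21 alternatives; Gnrh1, Hbb-bt and H2-Oa had 20 and Rps19-ps14 had 14, since they missed the filter in the rest. Over the alternatives each gene had, 61 kept their direction, 19 passed in at least 1 and 4 turned. Havcr2 (-0.24) was 0.0488 after median-ratio scaling, 0.0410 with array weights, 0.35 without T-023 and T-026, 0.34 after scaling without both, 0.0506 after scaling with only the groups compared, and -0.52 to 0.22 without 1 library. Cxcl9 was -0.0742 without T-023 and T-026 and -0.0779 after scaling without both, and -0.00891 to 0.50 without 1 library. Tox was -0.24 to 0.21 and Cd274 -0.13 to 0.23 without 1 library. The difference in repeat share was -0.0109 to 12.7 percentage points without 1 library. No paired analysis was possible because the replicate numbers in the labels are unique to each library and the groups share none. Differences smaller than the spread between 5 libraries were not detectable, and the reads behind each value are unknown.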
